A study of Rattus norvegicus with 3 samples.

Results

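Contractile smooth muscle genes, here 10 genes of the contractile apparatus and its regulators, were followed in the thoracic aorta of Sprague Dawley rats on 3 oligonucleotide arrays. The members were Acta2, Actg2, Myh11, Myl9, Tpm1, Tagln, Cnn1, Csrp1, Kcnmb1 and Pln, and they were represented by every probe set whose platform annotation gave exactly 1 gene symbol, that of a member. This gave 21 of the 8740 probe sets kept and 10 of the 4736 genes with a probe set of their own. One group of rats received water at 1 ml/kg (control), another allylamine at 35 mg/kg and the last allylamine at 70 mg/kg, each for 20 days, per the labels. Each group had 1 array of total RNA. Nothing in the sources used here says how many animals contributed to an array, or their age and sex. Allylamine is an unsaturated amine toxic to heart and arteries. An amine oxidase abundant in vascular smooth muscle turns it into acrolein, a reactive aldehyde, with release of hydrogen peroxide. The series compared the aorta across doses of it.

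Smooth muscle of the aortic media contracts when myosin motors pull on actin filaments after calcium enters the cytosol and the regulatory light chain of myosin is phosphorylated. Calponin, transgelin and tropomyosin sit on the actin filament, and potassium channels and the calcium pump of the sarcoplasmic reticulum set how much calcium is available. Many of these genes are controlled by serum response factor, which binds the CArG box, together with its coactivator myocardin, and vascular smooth muscle cells are known to lower them when they leave the contractile state after injury.

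The promoter table of RefSeq for the GRCr8 rat assembly held 7 of the 10 members, all but Myh11, Myl9 and Tagln. The 250 bases before the annotated start were searched on both strands. The CArG box itself was in none of the 7 windows, beside 1.5% of 33469 promoters of the same length. A CArG-like stretch, with 1 C or G among the 6 central letters, was in Acta2 only, at 2 places, and in 6.84% of all promoters. The 2 stretches lay 134 to 125 and 84 to 75 bases before the start of Acta2 and did not overlap each other or another motif searched. The letters TATAA were in Acta2 only (24.0% of all promoters), and CATTCC was in Acta2 and Tpm1 (12.1%). A match is a description of these letters and no evidence of a bound factor. The upstream sequence of Acta2 (GRCr8, chr1:241172504-241172753, minus strand) is shown because it held the CArG-like stretches, which are in capitals, and those of Cnn1 (chr8:28908187-28908436, plus strand) and Pln (chr20:33172244-33172493, plus strand) because these members were higher on both dosed arrays, as described further on. They are written 5′ to 3′.
Acta2: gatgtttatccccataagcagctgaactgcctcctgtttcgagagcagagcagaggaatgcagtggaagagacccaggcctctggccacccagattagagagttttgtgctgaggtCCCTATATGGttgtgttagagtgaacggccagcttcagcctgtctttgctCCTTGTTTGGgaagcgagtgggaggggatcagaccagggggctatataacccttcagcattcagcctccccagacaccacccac
Cnn1: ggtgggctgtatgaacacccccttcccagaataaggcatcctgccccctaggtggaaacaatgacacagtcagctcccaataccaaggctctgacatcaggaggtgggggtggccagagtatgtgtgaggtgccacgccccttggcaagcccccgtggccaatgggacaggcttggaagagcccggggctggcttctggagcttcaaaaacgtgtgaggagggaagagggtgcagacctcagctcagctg
Pln: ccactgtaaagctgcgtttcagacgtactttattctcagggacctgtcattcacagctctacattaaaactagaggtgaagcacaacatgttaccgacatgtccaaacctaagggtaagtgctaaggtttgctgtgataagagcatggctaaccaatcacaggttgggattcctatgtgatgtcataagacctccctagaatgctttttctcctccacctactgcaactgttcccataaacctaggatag

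The arrays differed widely from one another. The log2 range from the 5th to the 95th percentile was 6.58 in the control, 6.16 at 35 mg/kg and 5.22 at 70 mg/kg. Scaling to a common median does not change this range. Pearson's r of log2 intensity, taken over probe sets and so no measure of replicate agreement, was 0.70 for the low dose and control, 0.48 for the high dose and control, and 0.59 for the pair of doses. Relative to control, the labelled hybridisation controls were brighter by a median of 3.81-fold at the low dose and 28.8-fold at the high dose, and the 3' over 5' ratio of cytoskeletal actin was 0.376, 0.542 and 1.42 from control to 70 mg/kg, while that of GAPDH was 0.175, 0.318 and 0.226. The part of these differences in any result was not tested. All 7 smooth muscle markers with a probe set, 6 of them members and desmin (Des) the other, were above the floor on the control array. The floor was a scaled intensity of 188, the 40th percentile of all values. Of the markers, 5 were above it at 35 mg/kg, all but Actg2 and Des, and 6 at 70 mg/kg, all but Des. Des, the only marker here that is not a member, was thus below the floor on both dosed arrays. Their 13 probe sets summed to scaled intensities of 6780 (control), 6055 (low dose) and 9093 (high dose). In a whole aorta, fewer smooth muscle cells and less of a transcript per cell cannot be told apart.

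The contractile genes did not move one way with allylamine. At 70 mg/kg calponin (Cnn1), phospholamban (Pln) and the enteric-type actin Actg2 were at least 2-fold higher than on the control array, tropomyosin (Tpm1) and the potassium channel subunit Kcnmb1 were at least 2-fold lower, and the other 5 members differed by less. Of the 3 measured Tpm1 probe sets, 1 was higher. All 10 members were above the floor on both of these arrays on at least 1 probe set. The 5 members past 2-fold compare with 42.9% of the 2462 genes measured on both arrays. The 3 higher ones compare with 19.7% of these genes and the 2 lower ones with 23.2%. The median difference of the members was -0.14 on the log2 scale, beside -0.06 over all genes, and it was 0.01 with the values as deposited. By probe set, 8 of 15 measured were past 2-fold, beside 45.6% of all named probe sets. At 35 mg/kg 9 members were measured on both arrays, of which Cnn1 was at least 2-fold higher and Tpm1 and Myh11 at least 2-fold lower. That is 3 members, beside 33.1% of 2606 genes (16.8% higher, 16.3% lower), and the median was -0.09 beside 0.04 over all genes. By probe set, 6 of 12 were past 2-fold, beside 35.4% of named probe sets. The shares of genes are close to the background of the arrays. With 1 array a group there is no replicate, no p-value and no error between animals for any of these differences, and both doses were set against the same control array.

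**Figure D1:**
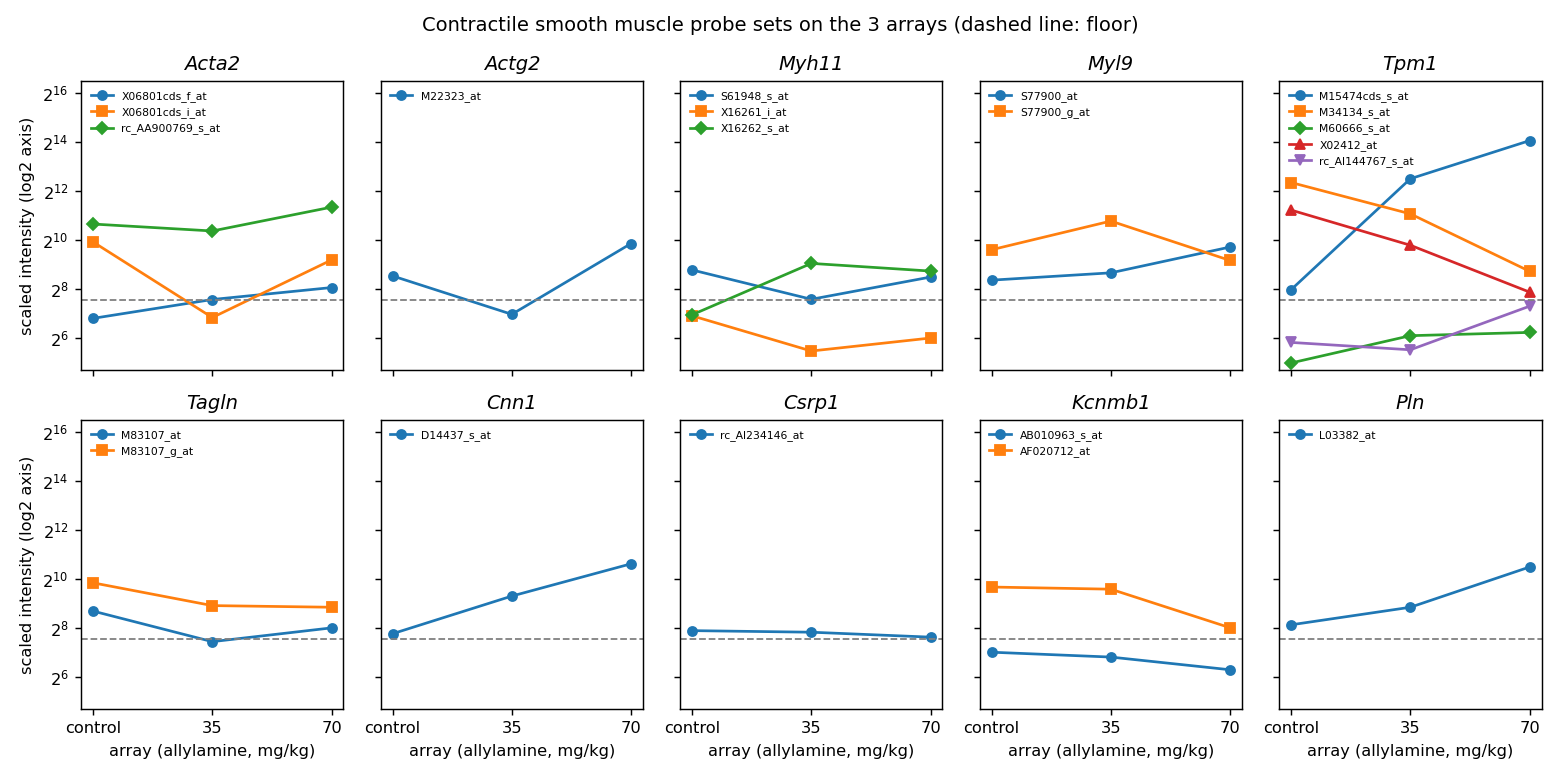
Scaled intensity (log2 axis) of each of the 21 probe sets of the 10 members on the control, 35 mg/kg and 70 mg/kg arrays, 1 line per probe set, with the floor of 188 as a dashed line. Cnn1 and Pln climb from array to array, 2 probe sets of Tpm1 decline while another climbs, and 4 probe sets (1 of Myh11, 1 of Kcnmb1, 2 of Tpm1) stay below the floor on all 3 arrays.

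Of the 21 member probe sets, 12 were above the floor on all 3 arrays, 4 were below it on all 3, and 5 crossed it. Over all probe sets kept, 37.4% were above it on all 3 arrays and 18.3% below it on all 3. Intensities below are as deposited, and differences are log2 differences after the arrays were scaled to a common median. A probe set reads its own stretch of a transcript with its own efficiency, so the levels of different probe sets are not compared.

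Among the filament proteins, Acta2 encodes the alpha actin of smooth muscle, a main protein of the thin filament. The probe set rc_AA900769_s_at read 1550.6 in the control, 1288.6 at 35 mg/kg and 2774.6 at 70 mg/kg, differences from control of -0.28 and 0.69. Another, X06801cds_i_at, read 932.7, 111.0 and 621.7 in the same order. It was thus dimmest at 35 mg/kg, at least 5.15-fold below the control, and differed by -0.73 at 70 mg/kg. The last, X06801cds_f_at, from the same sequence accession and so perhaps sharing probes, read 107.2, 185.0 and 284.4. It was below the floor on the control array and at least 1.42-fold higher at 70 mg/kg. The 3 Acta2 probe sets therefore gave no common direction against control. At 70 mg/kg the gene value, the median of the measured probe sets, was -0.02, and it took the opposite sign in 6 of 7 alternative settings.

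Actg2, the gamma actin typical of enteric smooth muscle, had a single probe set, which read 356.4 in the control, 121.6 at 35 mg/kg and 990.0 at 70 mg/kg. The low dose was below the floor, at least 1.97-fold below control, and the high dose was above control by 1.32. Actg2 was thus lowest at the low dose and highest at the high dose.

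The smooth muscle myosin heavy chain Myh11 is the motor of the thick filament. Its probe set S61948_s_at read 422.2 in the control, 186.2 at 35 mg/kg and 383.1 at 70 mg/kg, differences of -1.20 and -0.29. The 35 mg/kg value lay just above the floor after scaling (191). A further probe set, X16262_s_at, went the other way, from 118.6 on the control array to 514.6 and 453.7, at least 2.81-fold and 2.26-fold higher. The X16261_i_at probe set was below the floor throughout, at 115.2, 43.0 and 68.1. The 35 mg/kg value of the gene became 0.45 when the floor was set at the 25th percentile, which let in the probe set that moved up.

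Myl9 encodes the regulatory light chain whose phosphorylation switches smooth muscle myosin on. Its 2 probe sets come from 1 sequence accession and still differed. S77900_at read 316.3, 393.9 and 896.7 from control to 70 mg/kg, and S77900_g_at read 748.8, 1706.8 and 612.6. Both were above control at 35 mg/kg, by 0.30 and 1.17, while at 70 mg/kg one was above by 1.35 and the other differed by -0.44. The gene value was 0.74 at 35 mg/kg and 0.46 at 70 mg/kg, both under 2-fold.

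Tpm1, the alpha tropomyosin that lies along the actin filament and is spliced differently in smooth and striated muscle, had the widest disagreement among the members. M34134_s_at read 5026.8 in the control, 2093.7 at 35 mg/kg and 451.0 at 70 mg/kg. X02412_at followed the same order at 2301.7, 860.3 and 250.0. M15474cds_s_at went from 241.5 to 5662.2 and 18273.8. Against control the first 2 differed by -1.28 and -1.44 at 35 mg/kg and by -3.63 and -3.35 at 70 mg/kg, while the third was higher by 4.53 and 6.09. The remaining 2 probe sets, M60666_s_at and rc_AI144767_s_at, were below the floor on every array, with readings of 30.3 to 79.8 and 44.5 to 167.8. The SD between the 3 measured probe sets was 5.53 at 70 mg/kg, beside a pooled SD of 1.40 between probe sets of a gene over all 490 genes with several measured. The gene value was -3.35 at 70 mg/kg, and 0.934% of genes had a value as low or lower. It is that of X02412_at, the middle probe set of a gene whose probe sets diverged, near the floor at 70 mg/kg (scaled 234.5). With the brightest probe set in place of the median it was 6.09. The sources used here do not say which splice forms each probe set reads.

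**Figure D2:**
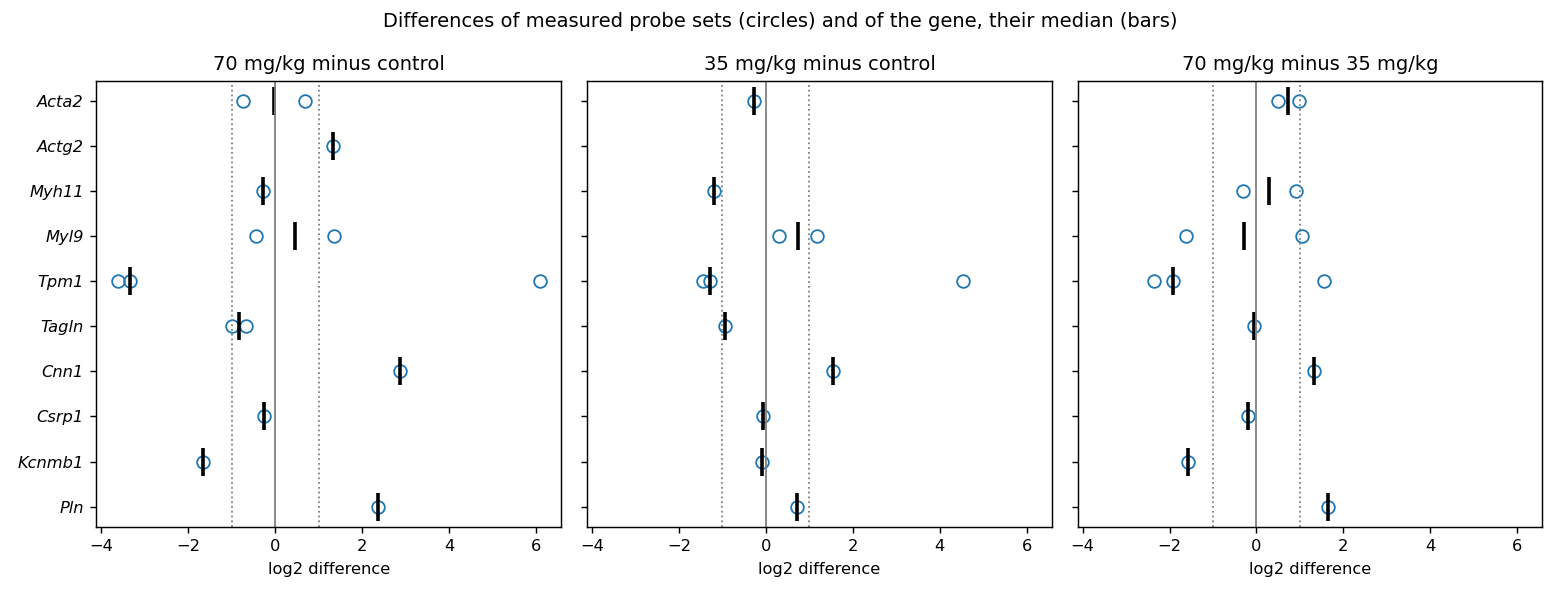
Log2 difference of each measured probe set (circles) and of the gene, the median of its probe sets (bars), for the 10 members in each of the 3 comparisons, with dotted lines at 2-fold. The circles of Tpm1 run from -3.63 to 6.09 at 70 mg/kg, those of Acta2 and Myl9 lie on both sides of 0, and Cnn1 and Pln rest on 1 probe set each.

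Among the actin-binding proteins, Cnn1, the calponin that restrains actin-activated myosin and marks differentiated smooth muscle, had the highest gene value of the members against control at both doses. A single Tpm1 probe set was higher still, and between the doses Pln was higher. Its probe set D14437_s_at read 209.5 in the control, 616.1 at 35 mg/kg and 1684.0 at 70 mg/kg. The differences from control were 1.54 at 35 mg/kg, a 2.91-fold excess, and 2.86 at 70 mg/kg, a 7.25-fold excess. The second of these was as high as or higher than that of 99.1% of genes measured. Between the doses the difference was 1.32. In the alternative settings that kept it above the floor it ran from 2.86 to 3.13 at 70 mg/kg, and its control reading lay near the floor, at a scaled 218.

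Tagln, encoding transgelin (SM22 alpha), an actin-binding protein and early marker of smooth muscle, was lower on both dosed arrays. M83107_g_at read 885.7, 470.3 and 492.0 from control to 70 mg/kg, differences of -0.93 and -0.998. M83107_at, from the same accession, read 397.7, 169.4 and 274.2, which was at least 2.20-fold below control at 35 mg/kg and differed by -0.69 at 70 mg/kg. Tagln was thus the only member with several measured probe sets at 70 mg/kg, of 4, whose probe sets had 1 sign, beside 48.4% of the 490 such genes. Its gene value of -0.84 stayed under 2-fold. Csrp1, a LIM domain protein of the actin cytoskeleton, had 1 probe set, which read 228.7, 221.3 and 211.0, differences of -0.06 and -0.27. It was near the floor on each array and under 2-fold in each comparison.

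Of the membrane and calcium store genes, Kcnmb1 encodes the beta subunit that makes the large-conductance calcium-activated potassium channel of vascular smooth muscle more sensitive to calcium. AF020712_at read 786.3 in the control, 748.8 at 35 mg/kg and 275.2 at 70 mg/kg, so the low dose was near control (-0.09) and the high dose was lower, with a difference of -1.66. The other probe set, AB010963_s_at, was below the floor on each array at 124.1, 109.4 and 83.7, in the same order. Pln encodes phospholamban, which restrains the calcium pump of the sarcoplasmic reticulum in cardiac and smooth muscle. It read 269.7, 448.8 and 1538.3, differences of 0.72 at 35 mg/kg and 2.36 at 70 mg/kg, the latter as high as or higher than that of 97.9% of genes.

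**Figure D3:**
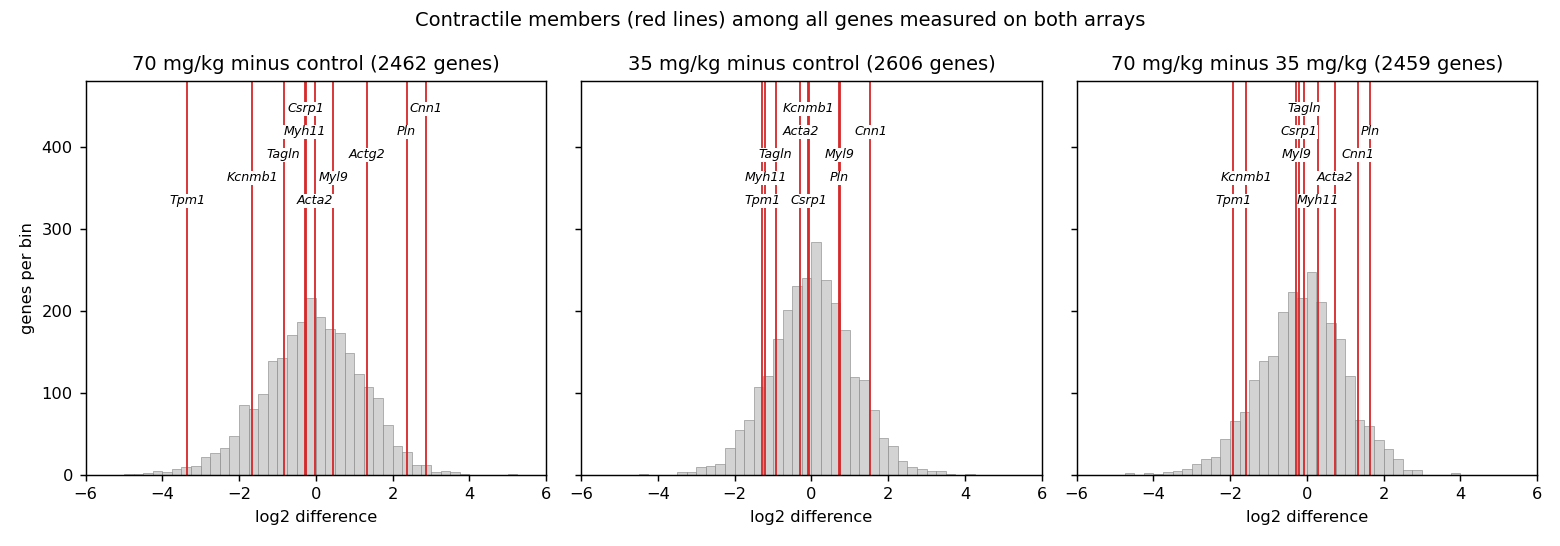
Histograms of the log2 difference of all genes measured on both arrays (2462, 2606 and 2459 genes, bins along the horizontal axis, genes per bin on the vertical axis) with each member as a red line. The members spread over most of the range at 70 mg/kg, with Tpm1 near the low end and Pln and Cnn1 near the high end, and over a narrower range at 35 mg/kg.

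Between the doses 9 members were measured, and 4 of them differed by at least 2-fold, beside 35.3% of 2459 genes. By probe set this was 8 of 14, beside 38.7%. Pln (1.65) and Cnn1 (1.32) were higher at 70 than at 35 mg/kg, beside 14.4% of genes, and Tpm1 (-1.92) and Kcnmb1 (-1.58) were lower, beside 20.9%. The Acta2 difference was 0.73. Its measured probe sets lay at 0.49 and 0.97, and the i_at probe set, below the floor at 35 mg/kg, read at least 3.10-fold more at 70 mg/kg. All 3 Acta2 probe sets were thus brighter at the high dose. Actg2 was at least 4.93-fold higher at 70 than at 35 mg/kg. Myh11 (0.30, probe sets at -0.31 and 0.91) and Myl9 (-0.28, probe sets at -1.61 and 1.05) had probe sets on both sides of 0. Tagln (-0.07) and Csrp1 (-0.20) were under 2-fold. The median of the members was -0.07, beside -0.06 over all genes.

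A further 4 probe sets carried the symbols of both Acta2 and the cardiac actin Actc1 and could not be assigned to either. X80130cds_i_at read 9404.0 in the control, 2146.3 at 35 mg/kg and 1125.5 at 70 mg/kg, differences of -2.15 and -3.21. X80130cds_f_at read 366.0, 316.6 and 208.8, differences of -0.23 and -0.96. Both probe sets of the other accession were brighter at 70 mg/kg than in the control. The rc_AI104567_at probe set read 252.5, 245.5 and 391.0, and rc_AI104567_g_at read 101.7, 71.9 and 460.2, the last at least 2.29-fold above control. The shared actin probe sets thus pointed in both directions, as those of Acta2 did.

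Genes related to the contractile apparatus were described from 6 lists, the last of them markers of smooth muscle that leaves the contractile state. Over all genes the shares past 2-fold, against which their counts are to be read, were 19.7% upward and 23.2% downward at 70 mg/kg, and 16.8% and 16.3% at 35 mg/kg. The value of a named gene rests on 1 measured probe set unless 2 are stated. Of the actomyosin regulation list (kinases, phosphatase subunits, light chains and actin-binding proteins outside the members), 17 of 29 genes had a probe set and 8 were measured at 70 mg/kg. Of these 1 was at least 2-fold higher and 1 lower, with a median of -0.19. They were the small heat shock protein Hspb6, which mediates cyclic nucleotide relaxation (1.39), and Myl12a, a regulatory light chain of non-muscle myosin (-3.66), while tropomyosin Tpm4 was at -0.89 on 2 probe sets. The Myl12a value rests on 1 measured probe set. Another Myl12a probe set, below the floor in the control, read 902.2 at 70 mg/kg and so moved the other way. The low dose had 0 of 9 higher and 1 lower, the myosin phosphatase targeting subunit Ppp1r12a (-1.19), with Myl12a at -0.92. The Ppp1r12a value rests on 1 measured probe set, and another, below the floor in the control, read 232.6 at 35 mg/kg. The caldesmon gene Cald1 was below the floor on all 3 arrays.

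Of the adhesion and cytoskeleton list 4 genes were measured at 70 mg/kg, with 3 at least 2-fold lower and 1 higher, and a median of -1.63. Csrp3, a LIM protein of striated muscle related to Csrp1, differed by -2.54, the muscle caveolin Cav3 by -1.88, and the collagen-binding integrin chain Itga1 by 1.91. The Cav3 value rests on 1 measured probe set. Another Cav3 probe set, below the floor in the control, read 505.8 at 70 mg/kg and so moved the other way. The low dose had 3 of 6 lower and 0 higher, including Itga8, an integrin chain of contractile smooth muscle (-1.39), and Csrp3 (-1.34), with a median of -0.97. These counts and medians rest on few genes, beside 23.2% of all genes lower at 70 mg/kg and 16.3% at 35 mg/kg.

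Calcium handling and membrane potential had the largest number of measured genes, 18 at each dose. At 70 mg/kg 6 of 18 were at least 2-fold lower (23.2% of all genes) and 1 higher (19.7%), with a median of -0.31. The inositol trisphosphate receptors Itpr1 and Itpr3, which release stored calcium, differed by -3.27 and -2.84 (the latter on 2 probe sets, -3.58 and -2.09), and Kcnj8, the pore of the vascular ATP-sensitive potassium channel, by -2.23. The Itpr1 value rests on 1 measured probe set. Another Itpr1 probe set, below the floor in the control, read 627.3 at 70 mg/kg and so moved the other way. The low dose had 5 of 18 lower and 3 higher, with a median of -0.36. The voltage-gated channel Kcna5 was at 2.63, reading 468.2 in the control, 2933.1 at this dose and 464.4 at the high dose. The potassium channel pore Kcnj11 was at -2.14 on 2 probe sets (-2.64 and -1.64).

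Of the vasoactive receptors and cyclic GMP enzymes, 2 of 12 genes were higher and 2 lower at 70 mg/kg (median -0.01), and 2 of 12 were higher and 0 lower at 35 mg/kg (median 0.34). At 70 mg/kg the serotonin receptor Htr2a was at 1.82, the guanylate cyclase subunit Gucy1a1 at 1.15 and the angiotensin receptor Agtr1a at -1.29. The prostacyclin receptor Ptgir was at 2.98 and the adrenergic receptor Adra1a at 1.01 at 35 mg/kg. Among transcriptional regulators of smooth muscle, 2 of 16 were higher and 4 lower at 70 mg/kg (median 0.06), and 3 of 15 were higher and 1 lower at 35 mg/kg (median -0.07). Id3, an inhibitor of basic helix-loop-helix factors, was at 2.51 and 1.43 at the high and low dose, the platelet-derived growth factor receptor Pdgfra at -2.93 and Notch1 at -1.98 at the high dose, and the myocyte enhancer factor Mef2d at 1.90 at the low dose. The Pdgfra value rests on 1 measured probe set. Another Pdgfra probe set, below the floor in the control, read 785.4 at 70 mg/kg and so moved the other way. Of the genes known to be raised when smooth muscle leaves the contractile state, 3 of 8 were higher and 0 lower at each dose, beside 19.7% of all genes higher at 70 mg/kg and 16.8% at 35 mg/kg, with medians of -0.02 at 70 mg/kg and 0.20 at 35 mg/kg. The adhesion molecule Vcam1 was at 2.12 and 2.02, and fibronectin (Fn1) at 1.58 at both doses on 2 probe sets. The matrix glycoprotein Tnc was at 1.35 at the high dose. Osteopontin (Spp1) and the gap junction gene Gja1 were below the floor on every array.

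**Figure D4:**
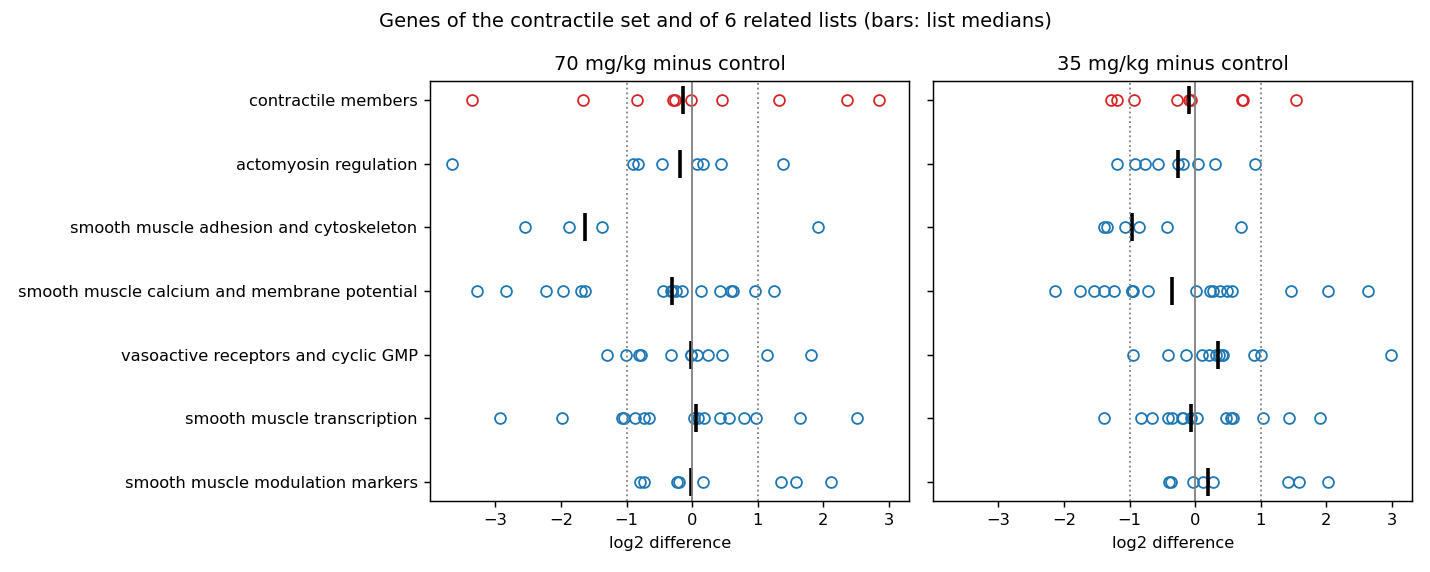
Log2 difference from control of each measured gene (circles) of the contractile members (red) and of 6 related lists (blue), at 70 mg/kg and 35 mg/kg, with list medians as bars and dotted lines at 2-fold. The contractile members run from -3.35 to 2.86 at 70 mg/kg around a median of -0.14, and the adhesion and cytoskeleton list has the lowest median at both doses, -1.63 on 4 genes and -0.97 on 6.

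Markers of other cell types were also present. The cardiac muscle list, whose tissue also expresses Pln, had 10 of its 12 genes with a probe set above the floor in the control, 9 at 35 mg/kg and 10 at 70 mg/kg, with Tnni3 below it on every array. Its 23 probe sets summed to 10840, 21010 and 17650 in scaled intensity, with Nppa readings of up to 938.9, 8630.3 and 8132.8 as deposited. At 70 mg/kg 3 of its 9 measured genes were higher (19.7% of all genes) and 1 lower (23.2%), with the natriuretic peptide Nppa at 2.97, the atrial light chain Myl4 at 2.69 and the ventricular light chain Myl2 at -1.54. The low dose also had 3 of 9 higher (16.8% of all genes) and 1 lower (16.3%). Nppa was at 3.18 and the atrial light chain Myl7 at 1.72 on 2 probe sets (0.69 and 2.75). Between the doses the 9 measured cardiac genes had a median of 0.31, with 0 at least 2-fold higher (14.4% of all genes) and 3 lower (20.9%). The part of cardiac RNA in the Pln difference was not tested. The skeletal muscle list, 11 genes with a probe set, summed to 4679, 4602 and 3889, with 8, 6 and 6 genes above the floor. The adipocyte list summed to 18760, 17960 and 8893, with 5, 7 and 8 of 9 genes above the floor and Cfd below it throughout. The fibroblast list summed to 30610, 77660 and 34740 with all 7 genes above the floor on each array. A large part of this sum was Dcn, whose brightest readings were 20126.6, 60606.8 and 17251.1 as deposited. Such sums follow the brightest probe sets and are no measure of a cell type's amount. The endothelial list summed to 4742, 7996 and 7738, with 5, 7 and 7 of 8 genes above the floor. The leukocyte list summed to 5587, 4524 and 7492, with 7, 5 and 4 of 9 genes above the floor and Itgam and Csf1r below it throughout. The part of these cell types in the contractile gene values was not tested.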

How the data were processed

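Per the labels, total RNA of thoracic aorta was measured on 3 arrays, 1 for each of 3 groups. The authors deposited linear intensity values, 1 for each probe set on an array. How they were computed and scaled is not stated in the sources used here, and precision is limited by having 3 arrays. Of 8799 probe sets, 59 were controls and not compared. Of the 8740 kept, 7006 had 1 gene symbol in the platform annotation, 308 several and 1426 none, and 6985 of the 7006 were found by gene ID in the GRCr8 gene table, which changed 0 symbols.

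Arrays were scaled to a common median, with log2 shifts of 0.06 for control, 0.04 for the low dose and -0.09 for the high dose. A probe set was measured in a comparison when above the floor (40th percentile, 188) on both arrays, and a gene's difference was the median log2 difference of its measured probe sets. Past 2-fold (a log2 difference of 1) it was counted. A value above the floor on 1 array only is given as at least N-fold, the bright value over the floor. With 1 array per group no test was made. The calculation was tested on simulated data in which all probe sets of a gene shared 1 change and the noise was small. In these data the pooled SD between probe sets of a gene was 1.40 at 70 mg/kg. The simulation therefore checks the arithmetic only. Alternatives were the deposited values, quantile normalization or a 2% trimmed mean in place of the median, a floor at the 5th, 25th or 55th percentile, taking a gene's brightest probe set, counting probe sets singly, and using probe sets without a letter code before the ending. All 10 members are named. From each list the rule takes the genes with the largest absolute difference, up to 3 at 70 mg/kg and up to 2 at 35 mg/kg. Only genes whose measured probe sets share 1 sign are taken, and the text names these for the pathway lists and the cardiac list. A gene with 1 measured probe set meets this condition by construction. Of the genes so named, only Tpm4, Itpr3, Kcnj11, Fn1 and Myl7 had 2. A probe set above the floor on 1 array only does not enter this rule, and it can point the other way. Genes listed as below the floor, and Dcn, are named beyond that rule, having been chosen after their values were seen. The members and lists were chosen with earlier results of these data known. Python 3.11.15, pandas 2.3.3 and numpy 2.4.6 were used.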

Additional observations from a re-analysis of the deposited data

Results flagged for a closer look

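A probe set that the report's comparisons do not use, because its annotation carries both Acta2 and the cardiac actin Actc1, read 460.2 at 70 mg/kg (rc_AI104567_g_at), above its control reading of 101.7 and its reading of 71.9 at 35 mg/kg. It was below the floor on the last 2 of these arrays and at least 2.29-fold above it at 70 mg/kg. The probe set from the same accession, rc_AI104567_at, read 252.5 on the control array and 391.0 at 70 mg/kg, a difference of 0.48.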

How the results depend on the processing

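No paired analysis was possible because each group had 1 array, and for the same reason no replicate could be left out. At 70 mg/kg against control the 5 members past 2-fold became 2 of 6 with a floor at the 55th percentile, beside 36.3% of genes. They were 8 of 15 with each probe set by itself (45.6% of named probe sets) and 5 of 7 with probe sets without a letter code (43.4%). The members' median was 0.57 with a floor at the 25th percentile. It was also above 0 with the values as deposited (0.01), a common trimmed mean (0.01), a floor at the 5th percentile (0.10) and the brightest probe set per gene (0.21). At 35 mg/kg the 3 members past 2-fold were 1 of 5 with a floor at the 55th percentile (29.6% of genes). They were 1 of 5 with probe sets without a letter code (34.1%) and 6 of 12 with each probe set by itself (35.4%). Between the doses the 4 were 2 of 7 with the 55th percentile floor (29.5% of genes). They were 8 of 14 with each probe set by itself (38.7%) and 4 of 5 with probe sets without a letter code (38.3%). The median was 0.39 with a floor at the 5th percentile and 0.91 with the brightest probe set per gene. Of the single genes past 2-fold, those that turned direction were Myh11 at 35 mg/kg (0.45 with a floor at the 25th percentile) and Tpm1, which with the brightest probe set per gene was 4.53 at 35 mg/kg, 6.09 at 70 mg/kg and 1.56 between the doses, and 0.13 between the doses with a floor at the 5th percentile. Genes under 2-fold also changed sign: at 70 mg/kg Acta2 (up to 0.69), Myh11 (up to 0.75) and Myl9 (down to -0.44), and between the doses Myl9 (up to 1.05), Myh11 (down to -0.31) and Tagln (up to 0.25). A higher floor and the letter-code rule leave fewer genes measured, a lower floor lets in dimmer probe sets, and the brightest probe set of Tpm1 is the one that moved up. Members past 2-fold at 70 mg/kg stayed at least 2-fold in the same direction in 34 of 36 gene and setting pairs. This was 15 of 18 at 35 mg/kg and 27 of 30 between the doses. Settings in which a gene was no longer measured are left out, and Myh11 at 35 mg/kg entered only 4. For a gene with 1 probe set several settings return the same value by construction, so the counts do not measure how firm a difference is. Signal near the floor limits Csrp1, Cnn1 on the control array and Myh11 at 35 mg/kg. It also limits Tpm1, at a scaled 234.5 for X02412_at at 70 mg/kg and 251.3 for M15474cds_s_at in the control. Kcnmb1 at 70 mg/kg was at a scaled 258.1 (AF020712_at). Such list genes include Vcam1, Id3 and Itga1, which read at most 210, 198.9 and 191.9 in the control as deposited.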
